A study of Homo sapiens with 12 samples.

Results

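The 42 genes described here are expressed in germ cells or in meiosis and are mostly silent in somatic tissue. They were taken by gene symbol from the tables of 12 RNA libraries, which list 25647 genes in common, and all 42 symbols were found. They comprise 5 genes of the synaptonemal complex, 6 of meiotic cohesin and the chromosome axis, 4 of meiotic recombination, 12 of the piRNA pathway and germ granule, 4 germ-cell RNA-binding proteins, 6 genes of spermatogenesis and the egg, and 5 cancer-testis antigens. The libraries came from 3 human carcinoma lines: MHCC97H from liver, A549 from lung and HCT116 from colon. Each line was sequenced once untreated, once with 1 µM TSA (trichostatin A, an inhibitor of histone deacetylases), once with 50 µM GSK126 (an inhibitor of the H3K27 methyltransferase EZH2) and once with 100 µM S2101 (which inhibits LSD1, a histone demethylase). The medium was DMEM for MHCC97H and A549 but RPMI 1640 for HCT116, and an effect of medium cannot be told apart from one of the line. The labels used here name neither a treatment time nor a vehicle. The doses differ between the compounds, and each comparison below is of these treatments at these doses. No repeat culture of a line is labelled, so every test between treatments rests on the spread between the 3 lines. The test between lines rests on the 4 differently treated libraries of each line.

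During meiosis, homologous chromosomes are held along a protein axis built on meiosis-specific cohesin, zipped together by the synaptonemal complex, and recombine at programmed double-strand breaks. Germ cells also carry the piRNA pathway, in which PIWI proteins loaded with small RNAs, helped by Tudor-domain scaffolds and helicases of the germ granule, silence transposons. In somatic cells many of these genes are kept off by promoter DNA methylation, by Polycomb complexes and by repressors that recruit histone deacetylases and methyltransferases, and some of them, the cancer-testis genes, are switched back on in tumours.

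Library totals ran from 14468304 to 19061367 reads, so that 3 reads corresponded to 0.157 to 0.207 counts per 1000000 reads (CPM). CDKN1A and H1F0, which are known to respond to deacetylase inhibition, were higher under TSA by a log2 fold change of 2.90 ± 0.45 (SE) and 2.25 ± 0.39, with adjusted p of 0.0027 and 0.00411 in edgeR's quasi-likelihood test. The labels of the lines were checked against tissue markers, and these were partly absent. Untreated MHCC97H had 8 reads of ALB, 39 of AFP, 6 of APOA1 and 0 of TTR but 834 of HNF4A and 218 of APOB. HNF4A also had 449 reads in untreated A549 and 150 in HCT116. Untreated A549 had 0 reads of NKX2-1, 1 of SFTPC, 7 of NAPSA and 27 of SFTPB. It had 42035 of KRT7 and 40436 of AKR1B10, which had 59275 in MHCC97H. NKX2-1, a lung marker, had 26 reads in untreated HCT116. Untreated HCT116 had 206 reads of CDX2, 6 of GPA33 and none of CDX1 or LGR5. VIL1 and CDH17, intestinal genes, had 384 and 1913 reads in untreated MHCC97H against 2 and 3 in HCT116. Over 6 markers of somatic testis cells, the summed level was 4.18 to 20.6 CPM in every library, and 6.77, 11.3 and 19.5 CPM in the TSA libraries of MHCC97H, A549 and HCT116. The A549 S2101 library stood apart from the other S2101 libraries in the genes described below, with 43 reads of RFPL4A against at most 6 in any other library without TSA, and results that rest on it are given with and without it. In RNA from whole cultures, fewer cells expressing a gene and less RNA per cell cannot be told apart.

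Promoter windows of RefSeq (GRCh38.p14, from 250 bases before to 50 after the annotated start) were found for 34 of the 42 genes. Those printed here are of RFPL4A and TTC29, which reached 1 CPM under TSA in every line, and of DAZL and SYCP1. DAZL and SYCP1 had at most 3 reads in any library, and their 1 and 6 reads in all were likewise under TSA. The RFPL4A window lies on the plus strand at chr19:55758847-55759146, the TTC29 window on the minus strand at chr4:146945815-146946114, the DAZL window on the minus strand at chr3:16605374-16605673 and the SYCP1 window on the plus strand at chr1:114854613-114854912. Each reads 5′ to 3′ along its gene, and capitals mark CpG pairs.
RFPL4A: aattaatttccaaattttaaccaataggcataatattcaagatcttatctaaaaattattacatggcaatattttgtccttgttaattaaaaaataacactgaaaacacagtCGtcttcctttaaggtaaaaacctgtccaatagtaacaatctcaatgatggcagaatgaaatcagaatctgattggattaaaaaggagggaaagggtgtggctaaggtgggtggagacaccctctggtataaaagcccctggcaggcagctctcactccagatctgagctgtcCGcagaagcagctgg
TTC29: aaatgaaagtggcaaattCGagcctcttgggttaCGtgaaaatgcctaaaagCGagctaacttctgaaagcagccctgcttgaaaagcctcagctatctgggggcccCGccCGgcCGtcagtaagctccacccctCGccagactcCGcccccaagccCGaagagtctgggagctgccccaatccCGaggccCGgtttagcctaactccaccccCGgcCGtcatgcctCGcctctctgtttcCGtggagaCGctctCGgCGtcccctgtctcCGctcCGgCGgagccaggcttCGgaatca
DAZL: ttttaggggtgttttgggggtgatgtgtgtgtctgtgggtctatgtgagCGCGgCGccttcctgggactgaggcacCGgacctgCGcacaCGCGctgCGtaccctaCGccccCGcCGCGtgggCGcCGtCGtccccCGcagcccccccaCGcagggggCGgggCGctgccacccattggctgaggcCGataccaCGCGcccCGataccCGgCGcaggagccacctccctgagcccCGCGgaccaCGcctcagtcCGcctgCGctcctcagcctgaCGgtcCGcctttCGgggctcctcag
SYCP1: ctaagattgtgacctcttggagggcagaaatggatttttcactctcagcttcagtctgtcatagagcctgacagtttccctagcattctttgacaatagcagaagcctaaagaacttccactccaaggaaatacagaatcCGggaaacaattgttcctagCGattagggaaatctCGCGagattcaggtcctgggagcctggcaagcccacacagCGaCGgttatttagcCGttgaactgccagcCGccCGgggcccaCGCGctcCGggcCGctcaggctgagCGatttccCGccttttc
The RFPL4A window held 2 CpG pairs, the TTC29 window 22, the DAZL window 33 and the SYCP1 window 15. The median was 26 over the 34 windows and 22 over 15843 windows of protein-coding genes. RFPL4A also held the letters TATAAA, which begin 11 bases before the annotated start. Its annotated span opens upstream of this window, at base 55757294 of chromosome 19, so the printed window belongs to a start inside that span. The SYCP1 window also lies inside its span, which opens at base 114854088 of chromosome 1. So do the windows of HORMAD2, DDX4, TDRD1, TDRD6 and LIN28B, and the counts over the 34 windows include these inner starts.

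Most of the 42 genes were near silent in untreated cells. At least 1 read was seen for 41 of them in some library, and SYCE1, a central element protein of the synaptonemal complex, had 0 reads in all 12 libraries, which allows at most 0.157 to 0.207 CPM in each. In the 3 untreated libraries together, 9 genes had 0 reads and 15 had 3 or fewer. At a threshold of 1 CPM, 7, 13 and 12 members were detected in untreated MHCC97H, A549 and HCT116. TSA libraries held 21, 22 and 16 in the same order of lines, GSK126 libraries 7, 15 and 14, and S2101 libraries 8, 17 and 14. Detection also rose over all genes: 13099, 13564 and 13854 genes reached 1 CPM untreated and 14646, 15157 and 14939 under TSA. Only 5 genes reached 1 CPM in all 12 libraries: STAG3, REC8, DMC1, PIWIL2 and MAGEA3. Next came TEX101 and LIN28A, at 1 CPM or more in 11 and 10 libraries. At the other end, 14 of the 42 stayed under 1 CPM in every library, with a highest value of 0.743 CPM.

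**Figure D1:**
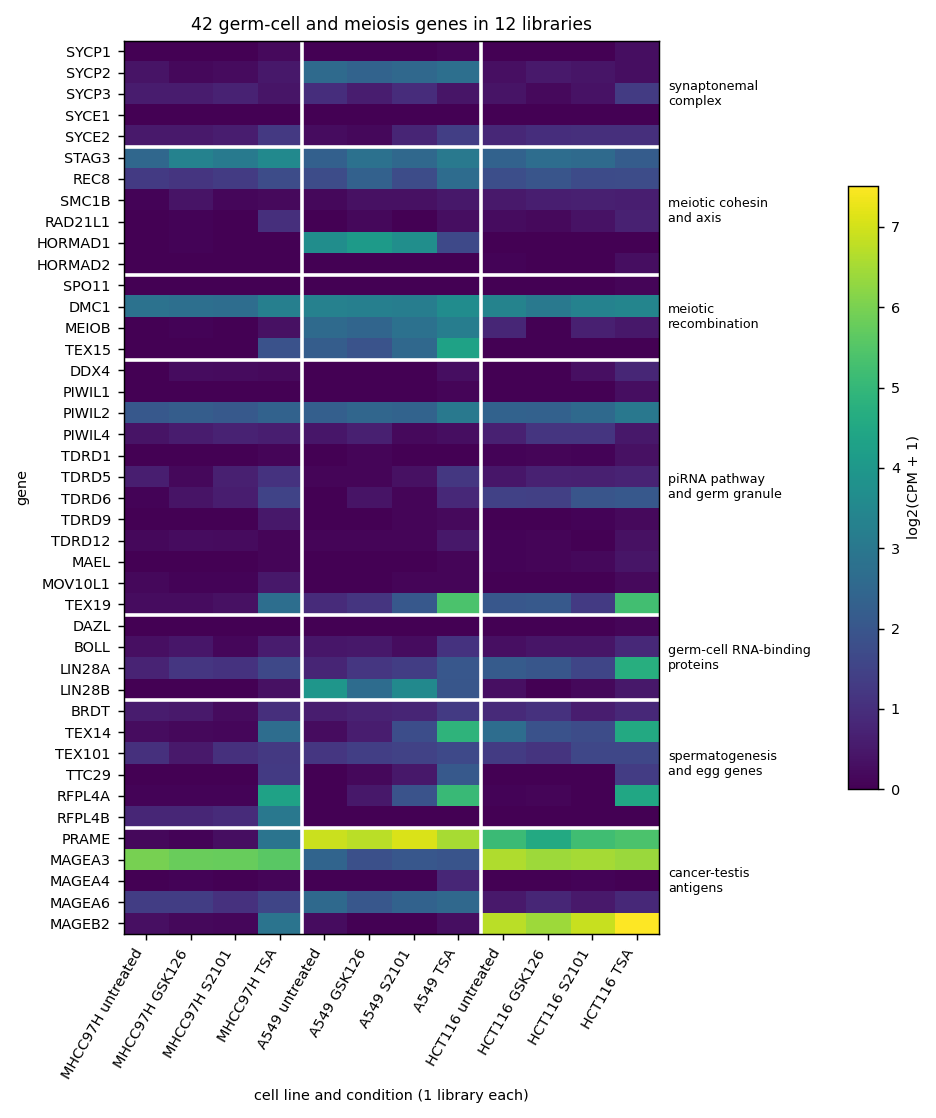
Each row is 1 of the 42 genes, ordered by role, and each column 1 library; colour gives log2(CPM + 1). Dark rows are genes near 0 in every library, such as SYCE1, DAZL and SPO11; the TSA column of each line is brighter in RFPL4A, TEX19 and TEX14, and PRAME, MAGEA3 and MAGEB2 differ mainly by line.

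**Figure D2:**
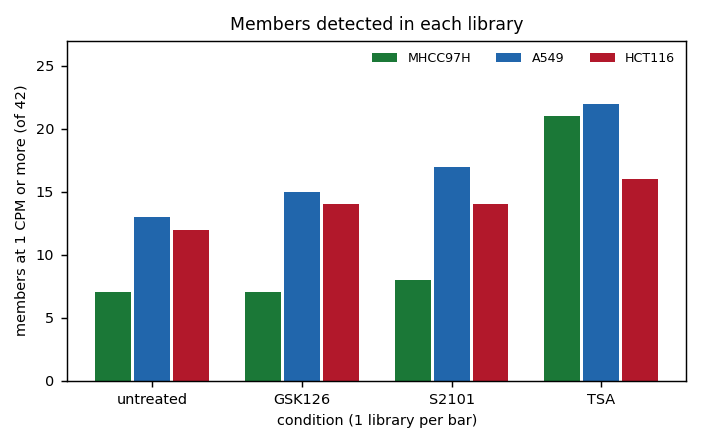
Bars count the members at 1 CPM or more in each library, 3 lines by 4 conditions, with 1 library per bar and no error bar. The TSA bars stand at 21, 22 and 16, above the untreated bars of 7, 13 and 12 in MHCC97H, A549 and HCT116. All genes at that threshold, not drawn, also rose, from 13099, 13564 and 13854 to 14646, 15157 and 14939.

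Under TSA, 8 of the 27 members with enough reads to be tested were called at an adjusted p under 0.05, 6 higher and 2 lower. The higher genes were RFPL4A, TTC29, TEX19, TEX14, TDRD6 and LIN28A, and the lower ones MAGEA3 and HORMAD1. TSA changed genes across the transcriptome: 34.6% of the 16929 genes tested were called, 17.4% higher and 17.2% lower. Of the 27, TDRD5, BOLL, TTC29 and RFPL4A passed the filter on low counts only when the TSA libraries were in the table, and 15 members did not pass it at all, with at most 15 reads in any library. Among the other 23, 26.1% were called, 17.4% higher and 8.7% lower, so the share called higher equalled the background. With the 4 genes included the shares were 29.6, 22.2 and 7.41%. The median log2 fold change of the 27 was 0.65, and that of all genes tested was 0.078. Placing TTC29 at its lower bound cannot move this median, since the bound also lies above it. The 4 genes that passed only through the TSA libraries all lie above 0.65, at 9.13 (RFPL4A), 8.16 (TTC29), 1.68 (TDRD5) and 1.23 (BOLL). The median of the 27 is thus in part set by the filter. The 2 medians were 1.04 and 0.085 without HCT116, 1.24 and 0.178 in DESeq2 and 1.69 and 0.212 with no filter. These fits tested 24, 31 and 41 members, so they are not medians of the same genes. In the remaining alternative fits the median of the members ran from 0.60, without MHCC97H, to 0.93, without A549.

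Without A549, RFPL4A alone remained called (adjusted p = 0.0374), and without MHCC97H RFPL4A, TEX19 and TTC29 remained (adjusted p = 0.0395, 0.0395 and 0.0466). Without HCT116, 10 of 24 members (41.7%) and 40% of all genes were called, among them STAG3 and SYCE2. A fit on the 6 libraries compared called 0 members and 0 of 16468 genes in all, with 6 members and 5064 genes at an unadjusted p under 0.05, and a fit with no term for cell line called 0 members and 260 genes. Each of the 8 kept its direction in every alternative fit in which it was tested.

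A second count asked which genes went from under 0.1 CPM untreated to at least 1 CPM in the same line. TSA switched on 5 of 20 such members in MHCC97H, RAD21L1, TEX15, TDRD6, TTC29 and RFPL4A, against 5.28% of all genes that were off. In A549 it switched on 3 of 19, TDRD5, TTC29 and RFPL4A, against 5.5%, and in HCT116 2 of 18, TTC29 and RFPL4A, against 1.71%. The members' shares were 25, 15.8 and 11.1%. RFPL4A alone met the rule in a S2101 library, that of A549 which stands apart, and without that library no member did under S2101; the backgrounds were 0% in MHCC97H, 0.335% in A549 and 0.0475% in HCT116. GSK126 switched on no member, with backgrounds of 0.022, 0.219 and 0.0949%. With 1 library per line and condition these counts carry no test, and the members are not a random draw, since RFPL4A was known to respond when they were chosen.

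**Figure D3:**
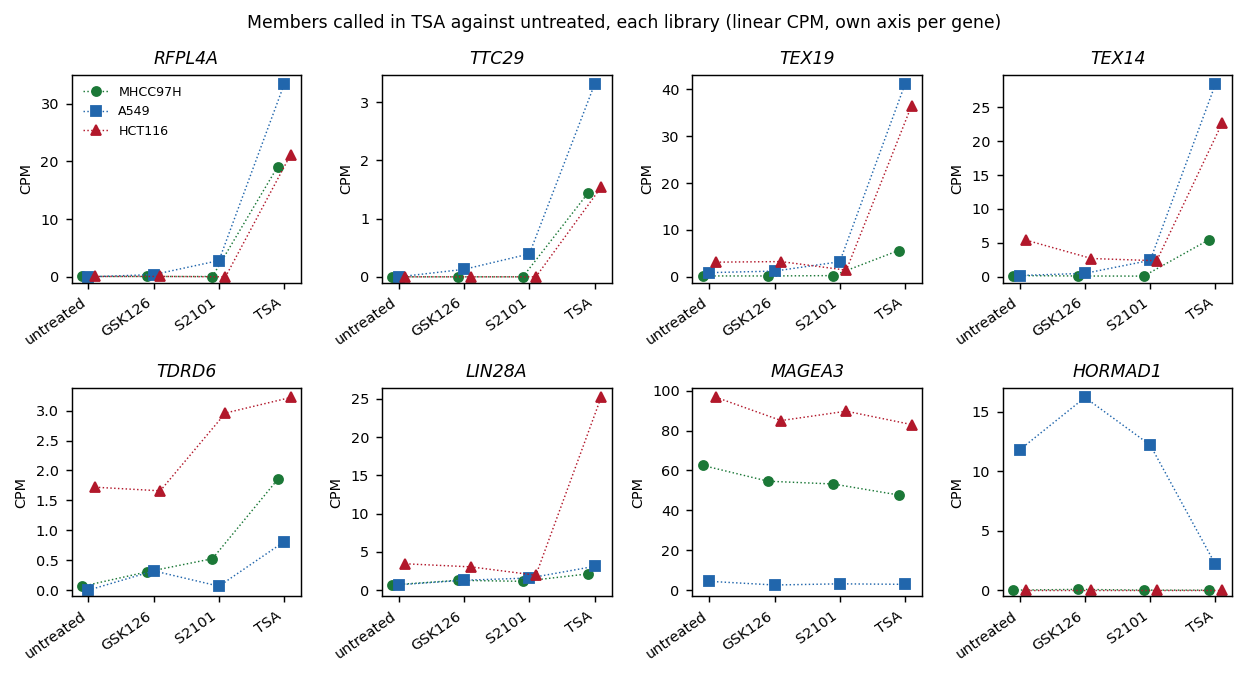
CPM in each library of the 8 members called between TSA and untreated, with a linear axis of its own for each gene; colours and symbols give the line, and dotted lines join the 4 libraries of a line. RFPL4A and TTC29 are at or near 0 in the untreated libraries and high under TSA in all 3 lines, TEX19, TEX14 and LIN28A differ between lines, and HORMAD1 is present in A549 only apart from 1 read.

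RFPL4A, a RING finger gene known from oocytes, gave the largest response of the tested members. It had 1, 0 and 1 reads in untreated MHCC97H, A549 and HCT116, 1, 6 and 1 under GSK126, 1, 43 and 0 under S2101, and 279, 494 and 315 under TSA. The TSA libraries stood at 19.1, 33.4 and 21.2 CPM, and the untreated ones at no more than 0.0624 CPM, so the groups did not overlap. Scaled by TMM (edgeR's trimmed-mean library scaling), the mean was 0.0429 ± 0.0376 CPM untreated and 22.6 ± 6.78 under TSA (SD, n = 3 lines), a log2 fold change of 9.13 ± 1.29 (SE) with adjusted p = 0.00213 in edgeR. Summed over the lines, 1088 reads under TSA against 2 untreated gave a ratio of 589 with an exact 95% interval from 163 to 4868 that covers counting error only. By the authors' RPKM, which divides by transcript length, RFPL4A was first among the 42 genes in A549 under TSA at 36.7, ahead of PRAME at 32.2, and its RPKM was 21 in MHCC97H and 23.3 in HCT116 under TSA.

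Reads of RFPL4A are uncertain in part because RFPL4AL1, a neighbour on chromosome 19 at bases 55769118 to 55773420, is a near-identical copy. Of the 986 different 50-base words in the GENCODE transcripts of RFPL4A, 66.2% also occur in RFPL4AL1. RFPL4AL1 had 5, 4 and 12 reads in the TSA libraries of MHCC97H, A549 and HCT116 and 0 in the other 9 libraries, and did not pass the filter for testing.

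TTC29, a tetratricopeptide gene of the sperm flagellum, had 0 reads in every untreated library. It had 0, 2 and 0 reads under GSK126, 0, 6 and 0 under S2101 and 21, 49 and 23 under TSA, again in the order MHCC97H, A549 and HCT116. Over a floor of 3 reads for the untreated group, TTC29 was at least 33.5-fold higher under TSA (edgeR adjusted p = 0.00531). Its highest level was 3.31 CPM, in A549 under TSA, so the gene was switched on in 3 of 3 lines but stayed low.

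TEX14, which keeps the intercellular bridges between germ cells open, was already present in HCT116. Its reads were 3, 3 and 88 untreated, 2, 8 and 39 under GSK126, 2, 37 and 40 under S2101 and 80, 420 and 337 under TSA. In CPM the TSA values were 5.47, 28.4 and 22.6, and the lowest lay just above untreated HCT116 at 5.4. The log2 fold change was 4.02 ± 0.87 with adjusted p = 0.00908 in edgeR, and the call was lost without MHCC97H (adjusted p = 0.0895) or A549 (0.0711). Without HCT116 the log2 fold change was 6.05.

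The other 3 genes of spermatogenesis and the egg were not called. BRDT, the testis member of the bromodomain family, reached at most 1.42 CPM and TEX101, a sperm membrane protein, at most 2.16 CPM. RFPL4B, a relative of RFPL4A, had reads in MHCC97H alone: 12 untreated, 12 under GSK126, 17 under S2101 and 103 under TSA (log2 fold change 2.83 ± 0.83, edgeR adjusted p = 0.0854), and 0 reads in the 8 libraries of the other lines. Hence 3 of the 6 genes in the group rose under TSA and none fell, beside 17.4% higher and 17.2% lower over all genes, and of these 3 RFPL4A and TTC29 passed the filter only through the TSA libraries.

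In the piRNA pathway and germ granule, 5 of 12 genes could be tested. TEX19 and TDRD6 rose under TSA and none fell, beside 17.4% higher and 17.2% lower over all genes. So few genes cannot set the group apart from those shares. TEX19, a mammalian germ-cell gene linked to transposon silencing on chromosome 17 at bases 82359247 to 82363775, had the smallest adjusted p of all members. Its reads were 3, 14 and 51 untreated, 3, 19 and 47 under GSK126, 5, 49 and 24 under S2101 and 82, 609 and 544 under TSA. TSA values of 5.61, 41.1 and 36.5 CPM lay above all 9 other libraries, where the highest was 3.25. The log2 fold change was 4.33 ± 0.56 with adjusted p = 0.00183 in edgeR, and 0.0593 without A549.

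TDRD6, a Tudor scaffold of the chromatoid body, had 1, 0 and 28 reads untreated, 5, 5 and 24 under GSK126, 10, 1 and 50 under S2101 and 27, 12 and 48 under TSA. Each line had more under TSA than untreated, but the TSA values of 1.85 and 0.81 CPM in MHCC97H and A549 overlapped the untreated 1.72 CPM of HCT116. Its log2 fold change was 2.50 ± 0.79 (edgeR adjusted p = 0.0373). The call was lost without MHCC97H (log2 1.83, adjusted p = 0.248) or A549 (2.15, 0.154), and without HCT116 the log2 fold change was 4.95. TDRD5, a related scaffold, had 9, 1 and 6 reads untreated, 2, 1 and 9 under GSK126, 11, 4 and 10 under S2101 and 17, 20 and 10 under TSA, with an adjusted p of 0.112 in edgeR for TSA. PIWIL2 was at 3.18 to 7.23 CPM over the 12 libraries, and its change under TSA did not pass (log2 0.51 ± 0.24, edgeR adjusted p = 0.122).

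The rest of the piRNA group stayed near 0. PIWIL4 reached at most 1.24 CPM, DDX4, the germ-cell helicase also called VASA, 0.739, TDRD9 and MOV10L1, both helicases, 0.41, TDRD12 0.405, MAEL 0.336, TDRD1 0.269 and PIWIL1 0.202. DDX4 went from 0 untreated reads over the 3 lines to 16 under TSA, of which 11 were in HCT116, at least 5.77-fold over the 3-read floor, and it also had 3 reads each in the GSK126 and S2101 libraries of MHCC97H and 4 under S2101 in HCT116. None of these except PIWIL4 was tested.

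Of the 5 synaptonemal complex genes 3 were tested, and none was called under TSA, beside 34.6% of all genes tested. SYCP2, a lateral element protein, was at 4.25 to 5.74 CPM in the 4 A549 libraries and at most 0.415 CPM in the other lines. SYCP3, its partner, reached 1.48 CPM in HCT116 under TSA, where it had 22 reads against 2 to 5 in the other HCT116 libraries, and SYCE2, a central element gene, at most 1.62 CPM. SYCP1, the transverse filament that joins the paired chromosomes, had 0 reads in the 9 libraries without TSA and 2, 1 and 3 with it.

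Among 6 cohesin and axis genes, STAG3 and REC8, subunits of meiotic cohesin, were expressed in every line. STAG3 had 75, 62 and 67 reads untreated, 147, 93 and 79 under GSK126, 144, 74 and 85 under S2101 and 160, 108 and 53 under TSA; the TSA library was the highest of the line in MHCC97H and A549 and the lowest in HCT116. Its estimate under TSA was 0.48 ± 0.28 on the log2 scale (edgeR adjusted p = 0.207). REC8 ranged from 1.22 to 5.34 CPM. RAD21L1, another cohesin subunit, had 0, 0 and 3 reads untreated, 1, 2 and 2 under GSK126, 0, 0 and 5 under S2101 and 15, 3 and 9 under TSA, too few to be tested. SMC1B reached at most 0.592 CPM and HORMAD2 0.202.

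HORMAD1, an axis protein that surveys unpaired chromosomes, was a gene of A549. Its A549 libraries had 185 reads untreated, 252 under GSK126, 186 under S2101 and 32 under TSA, and the 8 libraries of the other lines had 1 read in all. HORMAD1 fell under TSA by 2.58 ± 0.66 on the log2 scale (edgeR adjusted p = 0.027), a call that rests on 1 line and could not be tested without it. DESeq2 gave an adjusted p of 0.153 for HORMAD1, and edgeR gave 0.0985 without MHCC97H.

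Of 4 recombination genes, 3 were tested and none was called, beside 34.6% of all genes tested under TSA. DMC1, the meiotic strand-exchange recombinase, had 98, 138 and 151 reads untreated, 94, 133 and 104 under GSK126, 104, 122 and 152 under S2101 and 125, 170 and 144 under TSA, or 5.46 to 11.5 CPM throughout. MEIOB, a single-strand DNA binding protein, was at 4.44 to 8.1 CPM in A549 and at most 0.737 CPM elsewhere. TEX15, required for meiotic break repair, had 57, 43, 73 and 286 reads in A549 untreated and under GSK126, S2101 and TSA, 40 reads in MHCC97H under TSA with 0 in its other libraries, and 0 in all HCT116 libraries. The log2 fold change of TEX15 was 3.67 ± 1.24 with adjusted p = 0.0636 in edgeR. SPO11, which cuts the DNA to start recombination, had 1 read in the whole study.

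Among the germ-cell RNA-binding proteins, 3 were tested and LIN28A rose under TSA, beside 17.4% higher over all genes. LIN28A, which blocks the maturation of let-7 microRNAs, had 11, 11 and 56 reads untreated, 21, 20 and 44 under GSK126, 22, 24 and 33 under S2101 and 31, 46 and 375 under TSA. Much of the rise was in HCT116, where it reached 25.2 CPM, while the 2.12 and 3.11 CPM of MHCC97H and A549 under TSA lay below the 3.44 CPM of untreated HCT116. The log2 fold change was 2.19 ± 0.55 (edgeR adjusted p = 0.0165), with 0.0731 without MHCC97H and 0.118 without A549.

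LIN28B, its paralog, was seen mainly in A549 and had fewer reads there under each compound: 223 reads untreated, 83 under GSK126, 164 under S2101 and 45 under TSA, with at most 6 reads in any library of the other lines. Its change under TSA was not called (log2 -0.39 ± 1.25, edgeR adjusted p = 0.83). BOLL, a translational regulator of the DAZ family, had 4, 6 and 4 reads untreated, 6, 6 and 5 under GSK126, 2, 3 and 6 under S2101 and 7, 17 and 12 under TSA. BOLL did not pass for TSA against untreated (edgeR adjusted p = 0.0697), and DAZL, of the same family, had 1 read in all.

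The cancer-testis antigens varied widely between lines, and of 4 tested under TSA none rose and MAGEA3 fell. Over all genes, 17.4% were called higher and 17.2% lower. PRAME had 2, 1856 and 556 reads untreated, 1, 1632 and 328 under GSK126, 4, 2036 and 605 under S2101 and 93, 1359 and 606 under TSA. MHCC97H, nearly without PRAME untreated, had more under TSA, A549 had less and HCT116 was close to its untreated value, and the test over lines did not pass (log2 1.31 ± 0.97, edgeR adjusted p = 0.316). MAGEB2 had 4, 3 and 1719 reads untreated, 2, 0 and 1227 under GSK126, 2, 0 and 1964 under S2101 and 94, 3 and 2703 under TSA (log2 2.31 ± 0.95, adjusted p = 0.0859 in edgeR).

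MAGEA3 had 1001, 69 and 1576 reads untreated, 893, 40 and 1230 under GSK126, 1015, 48 and 1515 under S2101 and 698, 43 and 1236 under TSA. It was lower in all 3 lines under TSA and fell by 0.57 ± 0.17 on the log2 scale (edgeR adjusted p = 0.0267), while the range of the lines, 2.9 to 83 CPM under TSA and 4.41 to 96.7 untreated, overlapped almost wholly. That call was lost without MHCC97H (0.205), without A549 (0.217) and without the A549 S2101 library (0.0522). MAGEA6 reached at most 4.92 CPM, and of its 1885 transcript words of 50 bases 52% are shared with MAGEA3, so the split of reads between both genes is uncertain. MAGEA4 had 11 reads in A549 under TSA and 1 read in each of 3 other libraries.

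**Figure D4:**
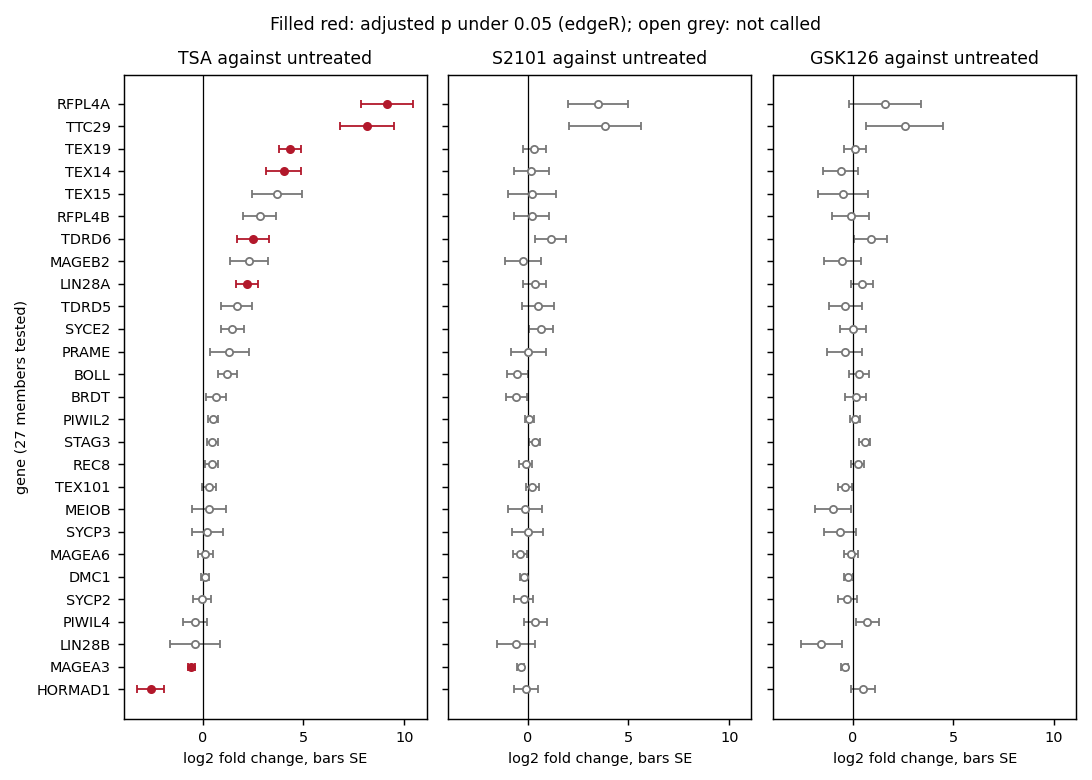
Points are log2 fold changes of the 27 tested members and bars their standard errors, for TSA, S2101 and GSK126 against untreated; filled red marks an edgeR adjusted p under 0.05 and open grey the rest. In the TSA panel 6 members are called above 0 and 2 below, and no point is called in the other panels.

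GSK126 and S2101, each read against the untreated libraries that TSA was also compared with, gave no called member. The background was 0% for both compounds, since edgeR called 0 of 16929 genes in each. At an unadjusted p under 0.05 there were 2809 genes and 1 member, MAGEA3, for GSK126, and 852 genes and 1 member, RFPL4A, for S2101. DESeq2 called 1201 and 17 genes and 0 members, with an adjusted p for 11 and 26 of them. Estimates for GSK126 were positive in 13 of 27 members with a median of -0.08, and for S2101 in 16 of 27 with a median of 0.09. The GSK126 median did not keep its sign, and ran from -0.20 to 0.13 over the alternative fits. The S2101 median ran from 0 to 0.14 over them, except for -0.18 in the fit without the A549 S2101 library, which was added after the data were seen. Without the A549 S2101 library, 11 of 27 estimates for S2101 were positive with the median of -0.18, and 555 genes and 0 members had an unadjusted p under 0.05. The widest standard errors, for RFPL4A and TTC29, were 1.77 and 1.90 for GSK126, and a change that misses the threshold in such sparse genes does not show that there was none.

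The differences between compounds were then tested directly. Against GSK126, TSA gave 6 called members: TEX19 (log2 4.21 ± 0.55), RFPL4A (7.52 ± 1.12), TEX14 (4.61 ± 0.89), TTC29 (5.58 ± 1.02) and LIN28A (1.71 ± 0.55) were higher and HORMAD1 was lower, with edgeR adjusted p between 0.00232 and 0.0444. The background was 29% of genes called, 14.7% higher and 14.2% lower, and the members' shares were 22.2, 18.5 and 3.7%. The 18.5% counts RFPL4A and TTC29, which passed the filter only through the TSA libraries. Against S2101, 7 members were called, the same 6 and BOLL (1.73 ± 0.48, edgeR adjusted p = 0.0304). The background was 26.6%, 13.5% higher and 13.1% lower, and BOLL too passed the filter only through the TSA libraries. Among the 23 members that pass without those libraries, only TEX19, TEX14 and LIN28A were called higher in each comparison. TDRD6 did not pass either test (log2 1.59 ± 0.76 against GSK126 and 1.35 ± 0.72 against S2101, edgeR adjusted p = 0.139 and 0.187), nor did MAGEA3 (-0.19 ± 0.17 and -0.25 ± 0.17, 0.416 and 0.284). Against GSK126, LIN28A lost its call without the A549 S2101 library (adjusted p = 0.0578) and had a log2 fold change of 0.87 (0.125) without HCT116, and HORMAD1 lost its call in DESeq2 (0.0527). Against S2101, LIN28A had 0.82 (adjusted p = 0.143) without HCT116. These comparisons share the TSA libraries. Without A549, 0 members were called against GSK126 and 1, RFPL4A, against S2101; without MHCC97H, 2, RFPL4A and TEX19, and 0. Leaving out the A549 S2101 library lowered the count against S2101 to 4, RFPL4A, TEX19, TEX14 and TTC29, as BOLL (adjusted p = 0.13), HORMAD1 (log2 -1.09, 0.819) and LIN28A (0.068) lost their calls.

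In that library several genes that respond to TSA were partly present. RFPL4A had 43 reads in A549 under S2101 against 0 untreated and 494 under TSA, which is 8.46% of the TSA increase in CPM. For TTC29 the share was 11.9% (6 reads), for TEX14 7.94% (37 reads) and for TEX19 5.77% (49 reads). In the other S2101 libraries the shares of these 4 genes were at most 1.39% in MHCC97H and at most 0% in HCT116. The A549 GSK126 library showed smaller shares of the same genes. They were 1.16% for RFPL4A, 3.89% for TTC29, 1.15% for TEX14 and 0.815% for TEX19. In the GSK126 libraries of MHCC97H and HCT116 they were at most 0.353%. TDRD6 and LIN28A did not follow the pattern: in A549 under S2101 they had 1 and 24 reads, shares of 8.1 and 36.3%, while the shares in MHCC97H were 25.9 and 32.6%, and that of TDRD6 in HCT116 was 82.4%. The cause, the compound or material from the TSA library, was not tested.

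The lines differed in 16 of 27 members, 59.3% against a background of 67.7% of all genes (edgeR, test of the cell line term). The smallest adjusted p-values were those of MAGEA3 (9.87e-07), SYCP2 (1.99e-05), MAGEB2 (2.15e-05) and HORMAD1 (3.15e-05). Averaged over the 4 conditions, TMM-scaled levels in MHCC97H, A549 and HCT116 were 58.7, 3.28 and 83.4 CPM for MAGEA3, 1.69, 0.098 and 114 for MAGEB2, and 1.65, 113 and 31.1 for PRAME. A549 alone held HORMAD1 (10.8 CPM), LIN28B (8.56), MEIOB (5.83) and SYCP2 (4.97), each at no more than 0.403 CPM on average in the other lines. RFPL4B was held by MHCC97H (2.36 CPM) with 0 reads elsewhere. By RPKM, the highest untreated members were MAGEA3 in MHCC97H (35.6), PRAME in A549 (41.6) and MAGEB2 in HCT116 (64.7). RFPL4A and TTC29 were not called between lines (edgeR adjusted p = 0.0817 and 0.102).

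Other germline genes, from lists kept apart from the 42, were called in both directions under TSA. Over all genes tested, 17.4% were called higher and 17.2% lower, and these short lists were not tested against those shares. Which of their genes passed the filter on low counts only through the TSA libraries was not worked out. Their counts of genes that rose may thus be set in part by the filter. None of 15 tested further meiosis genes rose and 3 fell, with a median log2 fold change of 0.33: MND1 and PSMC3IP, partners in meiotic strand exchange, by 2.06 and 1.14, and YTHDC2 by 0.60 (edgeR adjusted p = 0.00383, 0.00613 and 0.0222). Of 10 further piRNA genes, TDRKH (log2 2.10 ± 0.23) and TDRD10 rose and PLD6 fell. TDRD10 had 0 reads in all untreated libraries and 29, 45 and 7 under TSA. Among 14 further cancer-testis antigens GAGE1 and MAGEA11 rose and none fell, and among 8 sperm genes AKAP3, DNAH17 and HSPA1L rose and none fell.

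The 24 listed repressors of germline genes, with Polycomb PRC1.6 components, DNA methyltransferases and their partners, were all tested. Of these 12 fell and 3 rose under TSA, with a median of -0.67, beside 17.2% lower and 17.4% higher over all genes. UHRF1, which guides maintenance DNA methylation, fell by 1.91, TFDP1 by 1.58, PCGF6, a core PRC1.6 subunit, by 1.48 and CBX3 by 1.40 on the log2 scale, with edgeR adjusted p of 0.0161, 0.00173, 0.00164 and 0.00171. PCGF6 had 263, 387 and 766 reads untreated and 109, 137 and 282 under TSA in MHCC97H, A549 and HCT116. RYBP, MAX and RING1, named here after their values were seen, were the 3 that rose. For GSK126 and S2101 against untreated edgeR called 0 of 16929 genes, so the lack of calls in these lists says nothing about them. Estimates of the 24 repressors were positive in 7 for each compound, with medians of -0.27 for GSK126 and -0.17 for S2101. UHRF1 stood at 196, 173 and 318 CPM untreated in MHCC97H, A549 and HCT116. It was at 140, 23.3 and 118 CPM under GSK126 and at 39.5, 57.2 and 113 CPM under TSA.

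The promoter windows of the members were compared with those of all protein-coding genes for motif letters on both strands. CACGTG, the E-box bound by the MGA and MAX partners of PRC1.6, occurred in 4 of 34 member windows (11.8%) against 8.88% of all, and TCCCGC, bound by E2F6, in 16 (47.1%) against 35.1%. GGGCGG occurred in 22 (64.7%) against 58.5%, TATAAA in 4 (11.8%) against 9.63%, and TGACGTCA, the CRE, in 1 (2.94%) against 2.59%. TCCCGC and GGGCGG can overlap. RFPL4A and TTC29 had neither CACGTG nor TCCCGC in their windows, and DAZL, with 33 CpG pairs, also had neither. SYCP1 had 1 match of TCCCGC and none of CACGTG. These are matches of letters, and no binding was measured.

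**Figure D5:**
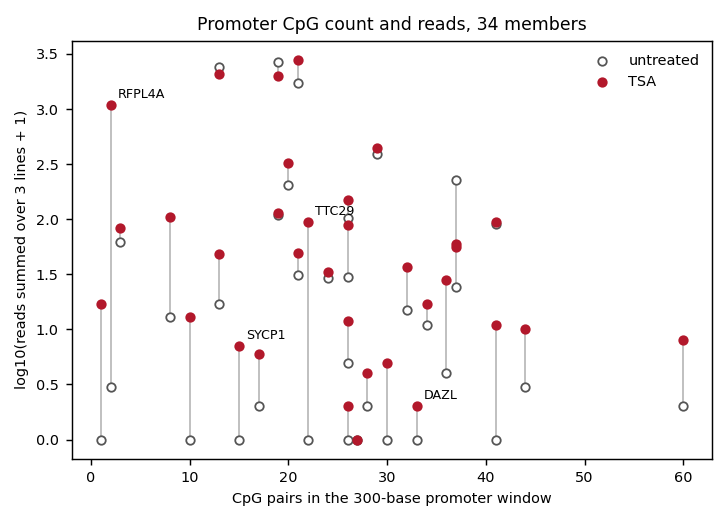
The x axis gives CpG pairs in the 300-base window of 34 members and the y axis log10 of the reads summed over 3 lines plus 1; open circles are untreated and red circles TSA, joined for each gene. RFPL4A with 2 CpG pairs and TTC29 with 22 climb from near 0, while DAZL with 33 and SYCP1 with 15 stay at 1 and 6 reads.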

How the data were processed

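PolyA RNA of 12 libraries was sequenced, with 1 library for each of 3 cell lines and 4 conditions. The deposited tables give read counts per gene and RPKM (reads scaled by gene length and library size), as the authors made them; the submitters' processing notes name GRCh38 (hg38), and an aligner or counter is not given in the sources used here. Sums of RPKM times length lay within 0.229% of the deposited count totals. Counts were used as deposited for tests, and the authors' RPKM only to compare levels between genes. An entry that names no gene, present in 11 of the 12 tables, was left out; 26 symbols had turned into dates, none of them a member.

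CPM are counts over the library total. edgeR 4.0.16 in R 4.3.3 was fitted to 16929 genes (TMM, factors 0.889 to 1.118; filterByExpr; condition plus cell line; quasi-likelihood F test with 6 residual degrees of freedom; Benjamini-Hochberg over all genes; called under 0.05), and each SE is the log2 fold change over the root of F. The cell line, given in the labels, pairs the libraries. Alternatives were RLE factors, other filters, DESeq2 1.42.0, no cell line term, 6 libraries only, each line left out, and, added after the data were seen, the A549 S2101 library left out. Scripts were tested on simulated data. Members named with values in every library were those called, switched on or at 10 CPM or more; of other lists, up to 4 called genes with the largest change. Members and lists were chosen with earlier results of these data known. Reads of genes that overlap a neighbour (SYCP3, SYCE2, STAG3, REC8, MEIOB, PIWIL1, TDRD6, TDRD9 and TEX14 overlap coding genes) may be shared, and strand use in counting is not given.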

Additional observations from a re-analysis of the deposited data

Results flagged for a closer look

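The log2 ratios here are within a line, on TMM-scaled CPM plus 1, for members at 10 CPM or more in some library that moved by at least 0.5 in opposite directions in 2 lines; each line has 1 library per condition, so the differences between lines were not tested. Under TSA, PRAME stood at 2.65 in MHCC97H and -0.61 in A549, a difference of 3.26. Under S2101, TEX14 stood at 1.5 in A549 and -0.95 in HCT116, a difference of 2.45. TEX19 under S2101 stood at 1.10 in A549 and -0.78 in HCT116 (difference 1.88), and LIN28A at 0.55 and -0.61 (difference 1.15). All 3 S2101 differences involve the A549 S2101 library that stands apart.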

How the results depend on the processing

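Another scaling, both other filters and DESeq2 left the counts of members called in either direction within 1.5 times their values, and all named calls kept their direction. In DESeq2 the members called lower went from 2 to 1 for TSA against untreated and from 1 to 0 for TSA against GSK126 and S2101, as HORMAD1 lost its call. Without the replicate block (the cell line term), 0 members were called for TSA against untreated, GSK126 or S2101; with only the 6 libraries compared, 0, 2 and 0. Leaving out each line in turn gave 1 to 10 members for TSA against untreated, 0 to 8 for TSA against GSK126, 0 to 5 for TSA against S2101 and 10 to 13 between lines. Without the A549 S2101 library, 4 members were called for TSA against S2101. Switched-on members under TSA numbered 3 at a threshold of 2 CPM and 3 to 6 without each line; under S2101, 2 at 0.5 CPM and 0 to 1. With a pseudocount of 0.25 CPM the mean within-line log2 ratio under TSA moved from 4.47 to 6.26 for RFPL4A and from 1.51 to 3.04 for TTC29. Counts over all genes also moved: for TSA against untreated, 5851 genes were called against 1152 without MHCC97H, 12 without A549, 260 without the cell line term and 0 with 6 libraries; for GSK126, 0 against 1201 in DESeq2, 434 with 6 libraries and 7 with RLE factors or no filter; for S2101, 0 against 17 and 25 in the first 2 of these. The fits without a line or with 6 libraries hold fewer samples; for the others the cause was not tested. Depth limits the sparse members: 3 reads are 0.157 to 0.207 CPM, and 15 of 42 were not tested.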
